A study of Sparus aurata with 5 samples.

Results

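The claudins cldn3, cldn4 and cldn24 were the least abundant claudin transcripts in the anterior (proximal) intestine of gilthead seabream (Sparus aurata) juveniles. They are the 3 of 7 claudins measured by real-time qPCR whose quantification cycle averaged above 30 over all fish with a cycle, in a set of 14 target genes. The mean cycle was 31.2 for cldn3, 32.6 for cldn4 and 30.2 for cldn24. cldn24 lay just inside that limit, and cldn5, with a mean cycle of 28.1, was the nearest claudin outside it. These levels chose the genes and were not tested. The quantification cycle is the number of amplification cycles at which the fluorescence of a reaction crosses a set level, so a higher cycle stands for less template, and 1 cycle stands for a factor of 2 where the template doubles in every cycle.

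The study compared fish fed feeds with microalgae-based functional ingredients with fish fed the same type of feed without them. Diets GB5 and GB10 contained 0.5% and 1% of LB-GREENboost, diets GH5 and GH10 contained 0.5% and 1% of LB-GUThealth, and the control diet, CT, contained neither. Expression was measured in 12 fish of each diet, 60 fish in all. For each fish and target gene the files hold at most a single cycle and a single relative expression, and some of these are missing. Each diet was fed to 3 tanks of fish. Which tank a fish came from is not in the files, and the fish were taken as replicates. If tanks differed, the p-values given here would be too small. The tissue was a piece of whole intestine, in which fewer cells of a type and less RNA per cell cannot be told apart, and no marker of a cell type of the epithelium was among the genes measured.

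Claudins are membrane proteins of the tight junction, the belt that seals neighbouring epithelial cells to each other and sets which ions and molecules can pass between them. Their make-up differs along the intestine, and some members tighten the passage while others form pores. In mammals, claudin-3 is a sealing claudin and claudin-4 is mostly counted among the claudins that lower the passage of ions. Fish have many more claudin genes than mammals, and the role of cldn24 in the seabream intestine is not described here. The genes are named as in the study. The sequence record that the study lists for cldn4 belongs to a gene that RefSeq (assembly fSpaAur1.1) calls cldnb, on chromosome 13 between LOC115593621 and LOC115594464. The records listed for cldn3 and cldn24 had no match in that gene table, so 1 of the 3 genes could be placed.

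The cycles of these claudins were late and widely scattered. For cldn3 they ran between 27.98 and 36.065 (median 31.0), and 44 of the 58 fish with a cycle were above 30. No positive cycle was listed for cldn3 in 1 fish of GB10 and 1 fish of GH5. Entries without a positive cycle were taken as missing. Whether these fish had too little cldn3 to be detected cannot be told, and they are absent from the low end of the values. For cldn4 they ran between 28.47 and 35.02 (median 33.0), and 57 of 60 fish were above 30. For cldn24 they ran between 26.95 and 32.565 (median 30.3), and 43 of 60 fish were above 30. The other claudins, cldn15, cldn7b, cldn4l and cldn5, had mean cycles of 24.3, 24.5, 25.0 and 28.1, and none of their fish was above 30. Relative to eef1a, the translation elongation factor gene used as the reference, the members appeared later by 12.4 cycles (cldn3), 13.8 cycles (cldn4) and 11.5 cycles (cldn24) on average, and the other 4 claudins by between 5.51 and 9.32 cycles. The amplification efficiency of each primer pair is not in the files, so the order of these genes is one of cycles and only roughly one of transcript number.

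**Figure D1:**
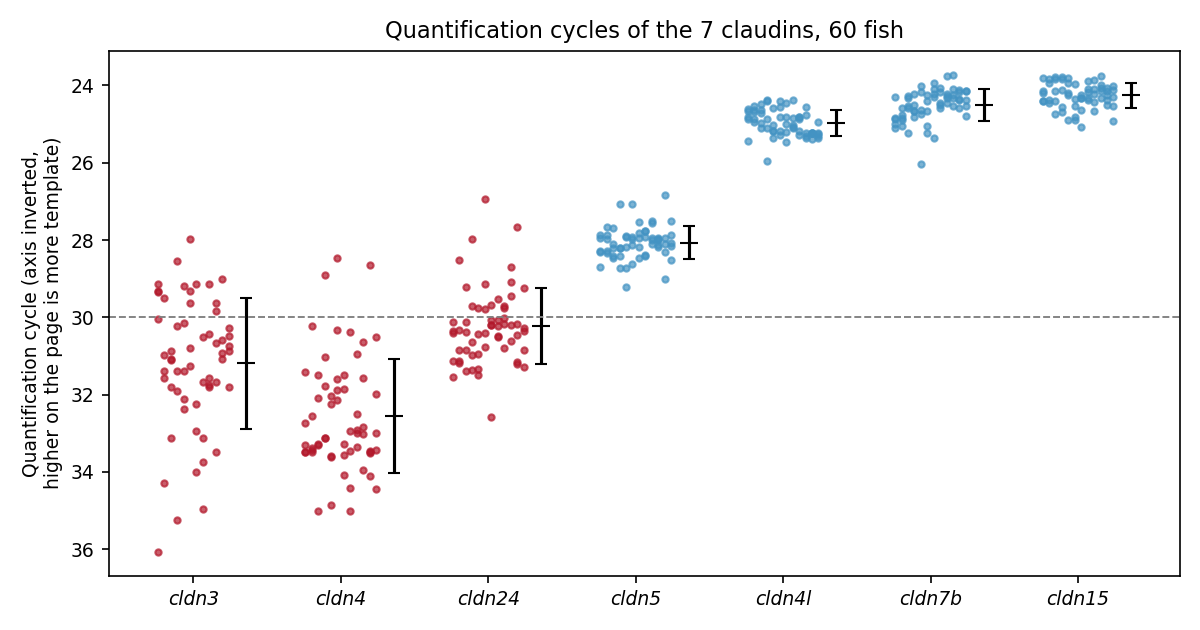
Quantification cycles of the 7 claudins in 60 fish (58 for cldn3 and 59 for cldn15), with the axis inverted so that more template lies higher. Points are fish, bars are the mean ± SD, red marks cldn3, cldn4 and cldn24, and the dashed line is at cycle 30. The red genes lie low and are widely spread, and the blue genes lie higher in narrow bands.

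The spread between fish was also larger in these genes. The choice used the mean cycle and not the spread, but both come from the same cycles, so the tests of spread are not independent of the choice. For each fish, the distance of its log2 relative expression from the median of its diet was compared with the mean distance of cldn4l, cldn5, cldn7b and cldn15 in the same fish. The mean distance was 1.26 for cldn3 and 0.347 for the other claudins, and cldn3 was the more distant in 40 of 57 fish. It was 1.13 for cldn4 and 0.349 for the other claudins, with cldn4 the more distant in 46 of 59 fish. It was 0.672 for cldn24 and 0.347 for the other claudins, with cldn24 the more distant in 43 of 58 fish. The difference was 0.91 (SE 0.15) for cldn3, 0.78 (SE 0.13) for cldn4 and 0.32 (SE 0.07) for cldn24, all in log2 units. A two-sided sign-flip permutation test gave p = 1e-05 for each, the smallest that 100000 permutations can give, and the same after Benjamini-Hochberg adjustment over the 3 genes. As the genes were chosen from these cycles, the differences describe the spread, and these p-values are no independent support for it. Wide spread was also seen in other genes. The SD of log2 relative expression within diets was 1.77 for cldn3, 1.52 for cldn4 and 0.89 for cldn24. It was 1.13 for il10, an anti-inflammatory cytokine gene with a mean cycle of 29.7, and 0.80 for tlr9, a receptor for microbial DNA with a mean cycle of 31.5. The tlr9 value is from the 54 fish with a ratio, and over all 60 fish with a cycle the SD of the cycle minus that of eef1a was 1.22, where cldn24 had 0.972. Among genes with earlier cycles the SD within diets was 0.99 for the immunoglobulin gene igm (mean cycle 25.1) and 0.84 for the occludin gene oclnb (mean cycle 26.5). These 2 values are not fully alike to the others. The oclnb ratios follow from a second list of eef1a cycles, and only 40 of 60 igm ratios could be recomputed from the cycles. The part of late cycles in the spread was not tested, and the cycles of the duplicate wells are not in the files used.

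On the scale of relative expression, which is relative both to the eef1a of that fish and to the average control fish, most fish had low values and a few had very high ones. For cldn3 the ratio ran between 0.0135 and 4.36 over 58 fish, a 324-fold range, and its mean was 1.47 times its median. For cldn4 it ran between 0.0575 and 7.41 over 60 fish, a 129-fold range, and its mean was 2.29 times its median. For cldn24 it ran between 0.391 and 6.37 over 59 fish, a 16.3-fold range, and its mean was 1.40 times its median. In the other 4 claudins the highest fish was between 4.04 and 5.21 times the lowest. In the deposited ratios of these claudins the skew was strongest in cldn4. There 48 of 60 fish were below 1, the mean of the control fish, which include the highest cldn4 of all. The 6 highest fish held 50.6% of the summed ratio. The skewness of the ratio was 3.20 for cldn4, 2.46 for cldn24 and 1.75 for cldn3, against 0.99 to 1.36 for the other claudins. Beyond the claudins it was 4.28 for tlr9, 2.42 for cd4, 2.17 for il10 and 1.96 for oclnb, so a skew of this size was not limited to these genes. The range was 59.3-fold for il10, 27.9-fold for oclnb and 21.8-fold for tlr9. With cldn24 recomputed from all 60 cycles, which adds a control fish without a ratio, its skewness was 3.45 and its range 26.3-fold. That skewness was above the 3.20 of cldn4. On the log2 scale the skewness of cldn3 turned to -0.85, because a few fish had very little cldn3, and that of cldn4 was still 0.81. The tests of diet were therefore made on the log2 scale with permutations of fish.

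cldn3 varied many-fold between fish in every diet. In GB5 the ratio was 0.0950 in the lowest fish, 0.625 at the median and 3.72 in the highest fish. In GB10 these values were 0.0890, 0.752 and 2.35, and in GH5 they were 0.0344, 0.374 and 1.73. In GH10 the lowest, median and highest ratios were 0.128, 0.891 and 2.17, against 0.0135, 0.542 and 4.36 in CT. Both the highest and the lowest cldn3 among the fish with a ratio were thus in control fish. The ranges overlapped, and values between 0.128 and 1.73 lay inside the range of every diet. Mean relative expression of cldn3 was 1.10 ± 1.10 in GB5 (SD, n = 12), 0.851 ± 0.716 in GB10 (SD, n = 11), 0.660 ± 0.630 in GH5 (SD, n = 11), 0.962 ± 0.690 in GH10 (SD, n = 12) and 1.00 ± 1.22 in CT (SD, n = 12).

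cldn4 had the lowest medians and, in each diet, at least 1 fish far above them. In GB5 the lowest, median and highest ratios were 0.165, 0.502 and 6.87. In GB10 they were 0.0575, 0.577 and 2.83, and in GH5 they were 0.131, 0.341 and 5.33. As folds, the medians of these diets lay closer together than either end of their ranges. In GH10 they were 0.114, 0.407 and 3.05, against 0.160, 0.362 and 7.41 in CT. Mean relative expression of cldn4 was 1.09 ± 1.88 with GB5, 0.820 ± 0.820 with GB10, 0.957 ± 1.46 with GH5, 0.829 ± 1.04 with GH10 and 1.00 ± 2.03 with CT (SD, n = 12 each). The SD reached or passed the mean in each diet.

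cldn24 was the least scattered of these genes, and in the deposited ratios its means were above CT in each supplemented diet. With the control fish that has a cycle but no ratio counted, each of these means lay below CT, as described below. In GB5 the lowest, median and highest ratios were 0.698, 1.01 and 6.37. In GB10 they were 0.631, 1.49 and 3.41, and in GH5 they were 0.559, 0.959 and 5.07. GB10 had the highest median, although its highest fish was below that of GB5 and GH5. In GH10 they were 0.391, 1.19 and 4.81, against 0.473, 0.905 and 1.78 in CT. Mean relative expression of cldn24 was 1.495 ± 1.56 in fish fed GB5, 1.70 ± 0.917 with GB10, 1.41 ± 1.24 with GH5 and 1.57 ± 1.34 with GH10 (SD, n = 12 each), and 1.00 ± 0.453 in CT (SD, n = 11), where 1 fish has a cycle but no ratio.

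**Figure D2:**
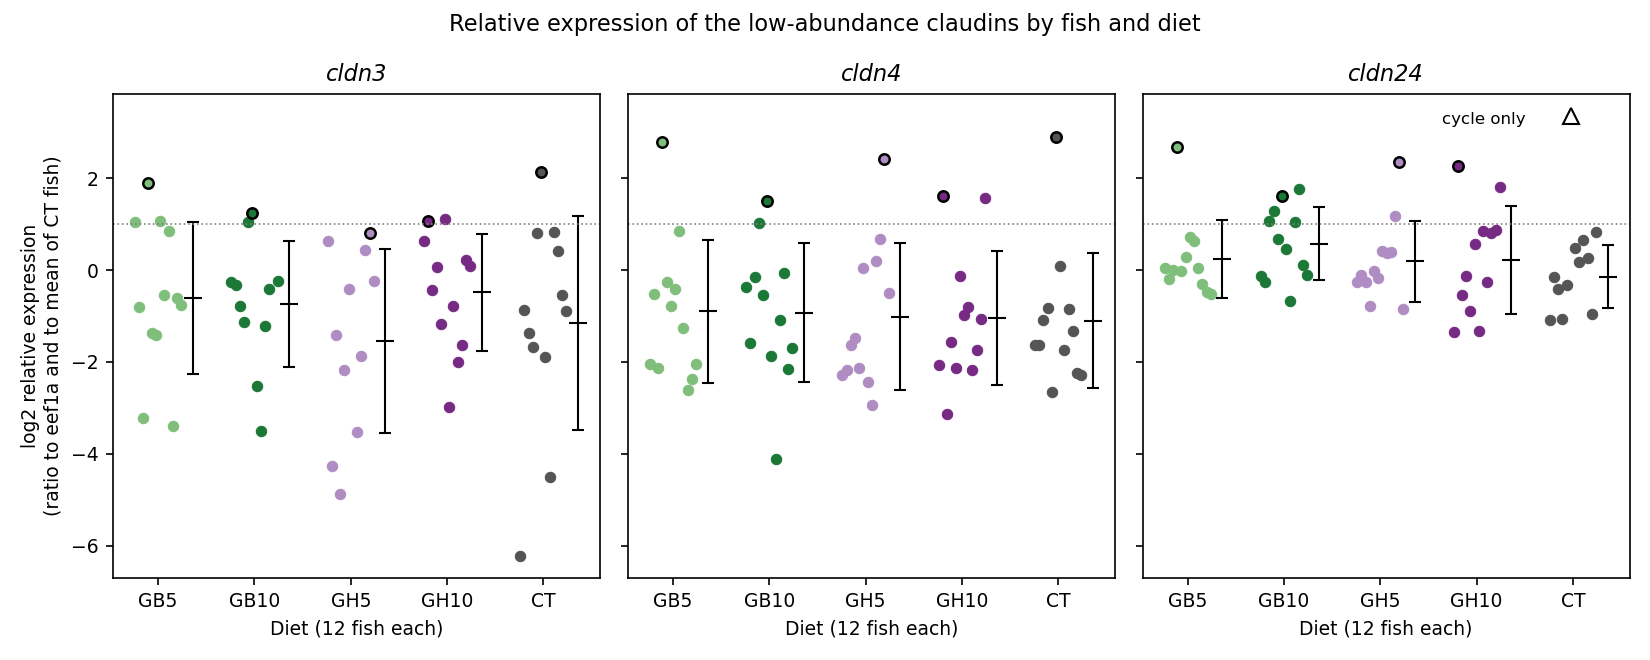
Log2 relative expression of cldn3, cldn4 and cldn24 in each fish, by diet, with the mean ± SD beside the points. The dotted line is a ratio of 2, black outlines mark the fish with the highest cldn4 of its diet, and the open triangle is the CT fish whose cldn24 has a cycle but no deposited ratio, placed at 10.3 from that cycle. The diets overlap in each gene, and the outlined fish lie at or near the top of all 3.

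No difference in cldn3, cldn4 or cldn24 was detected among the 5 diets. The permutation p of the one-way F statistic was 0.603 for cldn3, 0.997 for cldn4 and 0.459 for cldn24 (Benjamini-Hochberg values over the 14 genes 0.767, 0.997 and 0.717). None of the 3 was under 0.05, where 7.14% of the target genes, 1 of 14, was. Limma's moderated test gave p of 0.560, 0.997 and 0.441. None of the 14 target genes was under 0.05 in limma's test, where the lowest p was 0.0552 for cldn4l.

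Fish of the supplemented diets taken as a single group were compared with CT fish on the log2 scale. The difference, supplemented minus CT, was 0.32 for cldn3 (SE 0.57, 95% interval -0.82 to 1.46, permutation p = 0.575). It was 0.13 for cldn4 (SE 0.48, 95% interval -0.83 to 1.09, permutation p = 0.785). It was 0.45 for cldn24 (SE 0.29, 95% interval -0.14 to 1.04, permutation p = 0.131). None of the 3 was under 0.05, with 7.14% of the 14 genes called in this comparison. As a fold, the interval for cldn24 runs between 0.907 and 2.06. Those for cldn3 and cldn4 run between 0.567 and 2.76 and between 0.564 and 2.12. A doubling by supplementation was thus within the interval of each gene for the deposited ratios. For cldn24 these leave out 1 control fish with a cycle. With ratios recomputed from all cycles the cldn24 difference was 0.16 (permutation p = 0.623). No interval was computed for it, so the statement on a doubling does not extend to it. On the linear scale the differences of cldn3 and cldn4 had the opposite sign, and the highest fish of both genes was a control fish.

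No difference between ingredients or doses was detected within the supplemented diets (48 fish, of which 46 for cldn3). Averaged over doses, LB-GUThealth minus LB-GREENboost was -0.34 for cldn3 (SE 0.47, permutation p = 0.473), -0.12 for cldn4 (SE 0.44, permutation p = 0.786) and -0.20 for cldn24 (SE 0.27, permutation p = 0.456) in log2 units, with none of the 3 called and 7.14% of the 14 genes called. Averaged over ingredients, 1% minus 0.5% was 0.46 for cldn3 (SE 0.47, permutation p = 0.335), -0.03 for cldn4 (SE 0.44, permutation p = 0.943) and 0.18 for cldn24 (SE 0.27, permutation p = 0.510), with none called and 0.0% of the 14 genes called. The interaction, the dose difference with LB-GUThealth minus that with LB-GREENboost, was 1.19 for cldn3 (SE 0.94, permutation p = 0.211), where 1% minus 0.5% was 1.05 with LB-GUThealth and -0.13 with LB-GREENboost. It was -0.00 for cldn4 (SE 0.88, permutation p = 0.997) and -0.30 for cldn24 (SE 0.54, permutation p = 0.580). None of the 3 interactions was under 0.05, with 7.14% of the 14 genes called. Here and in the comparisons above, called means a permutation p under 0.05 before adjustment. After Benjamini-Hochberg adjustment over the 14 genes, no target gene was under 0.05 in any of these tests. The lowest adjusted value was 0.133, for the interaction of cldn4l.

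Of the 30 comparisons of a pair of diets, 10 for each gene, none was under 0.05 in the permutation test adjusted for the 10 pairs of a gene. Pairs of diets were tested for cldn3, cldn4 and cldn24 only, so no share over all target genes can be set beside this count. The lowest adjusted p was for cldn24 in GB10 against CT, with a difference of 0.72 (SE 0.37, adjusted permutation p = 0.320). This difference leaves out 1 control fish with a cldn24 cycle and no ratio. With ratios recomputed from all cycles the mean log2 value was -0.254 in GB10 and -0.678 in CT, and the pairs were not tested on these ratios. For cldn3 it was GH10 against GH5, with a difference of 1.05 (SE 0.74, adjusted permutation p = 0.614), and for cldn4 the lowest was 0.997. The spread between fish did not differ detectably between diets either, with permutation p of 0.480 for cldn3, 0.952 for cldn4 and 0.272 for cldn24 in a test of the distances from the diet median. The log2 SD of cldn3 lay between 1.27 in GH10 and 2.32 in CT, and that of cldn4 between 1.46 and 1.59. That of cldn24 lay between 0.690 in CT and 1.17 in GH10, but the CT value leaves out 1 fish with a cycle and no ratio. With ratios recomputed from all cycles the cldn24 SD of CT was 1.21, the largest of the diets (permutation p = 0.433 in the same test).

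High-expressing fish were defined as those with a ratio of 2 or more, that is, at least 2 times the mean of the control fish. For cldn3 there were 8 of 58, comprising 3 in GB5, 2 in GB10, 0 in GH5, 2 in GH10 and 1 in CT (permutation test of the counts, p = 0.572). For cldn4 there were 7 of 60, comprising 1 in GB5, 2 in GB10, 1 in GH5, 2 in GH10 and 1 in CT (permutation p = 1). High cldn4 thus occurred once or more in each diet, the control included. For cldn24 there were 10 of 59, comprising 1 in GB5, 5 in GB10, 2 in GH5, 2 in GH10 and 0 in CT (permutation p = 0.114). The 5 fish of GB10 were the largest number in any diet, and this count depends on a control fish described below. For cldn3 and cldn4 the mean of the control fish includes that fish, the highest in both. At 2 times the control median, 17 of 58 fish were high in cldn3, 18 of 60 in cldn4 and 12 of 59 in cldn24. The permutation p of these counts by diet was 0.931, 0.826 and 0.0839.

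The high values fell on the same few fish more than once. Of the 60 fish, 15 were high in at least 1 of the 3 genes, 8 of them in 1 gene, 4 in 2 genes and 3 in all 3 genes. The 3 fish high in all were 1 each of GB5, GB10 and GH10. Of the 7 fish high in cldn4, 6 were high in cldn24, which are 6 of the 10 fish high in cldn24, and 4 were high in cldn3, which are 4 of the 8 fish high in cldn3. The remaining high-cldn4 fish was the control fish without a cldn24 ratio. Of the fish high in cldn3, 3 were also high in cldn24. These counts change when the ratios are recomputed from all cycles, which sets cldn24 relative to all 12 control fish. Then 4 fish were high in cldn24, all 4 of them also high in cldn4, and the fish high in all 3 genes were 1 each of GB5, GH10 and CT. In all, 11 fish were high in at least 1 gene, 6 of them in 1 gene, 2 in 2 genes and 3 in all 3 genes.

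The fish with the highest cldn4 of each diet shows the pattern best. In GB5 this fish had ratios of 3.72 for cldn3, 6.87 for cldn4 and 6.37 for cldn24. In GB10 it had 2.35, 2.83 and 3.08, and in GH5 it had 1.73, 5.33 and 5.07. Each of these was first or second of its diet in all 3 genes. In GH10 it had 2.10, 3.05 and 4.81, against 4.36 for cldn3 and 7.41 for cldn4 in CT. Chosen by cldn4 alone, these 5 fish were first of their diet for cldn3 in 4 of 5 diets and for cldn24 in 4 of 5 diets, and second in the other. They were also first for tlr9 in 4 of 5 diets and second in the other, and first for il10 in 3 of 5. Among the more abundant claudins the ranks were mixed. For cldn5 they were first in 2 of 5 diets and first or second in 4 of 5. They were first for cldn4l and cldn7b in 1 diet each and for cldn15 in none, and for the T helper cell gene cd4 they ranked between 3 and 12. Their eef1a cycle was the lowest of the diet in 1 of 5, with ranks between 1 and 9. The part of the immune genes in the high claudin values was not tested.

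**Figure D3:**
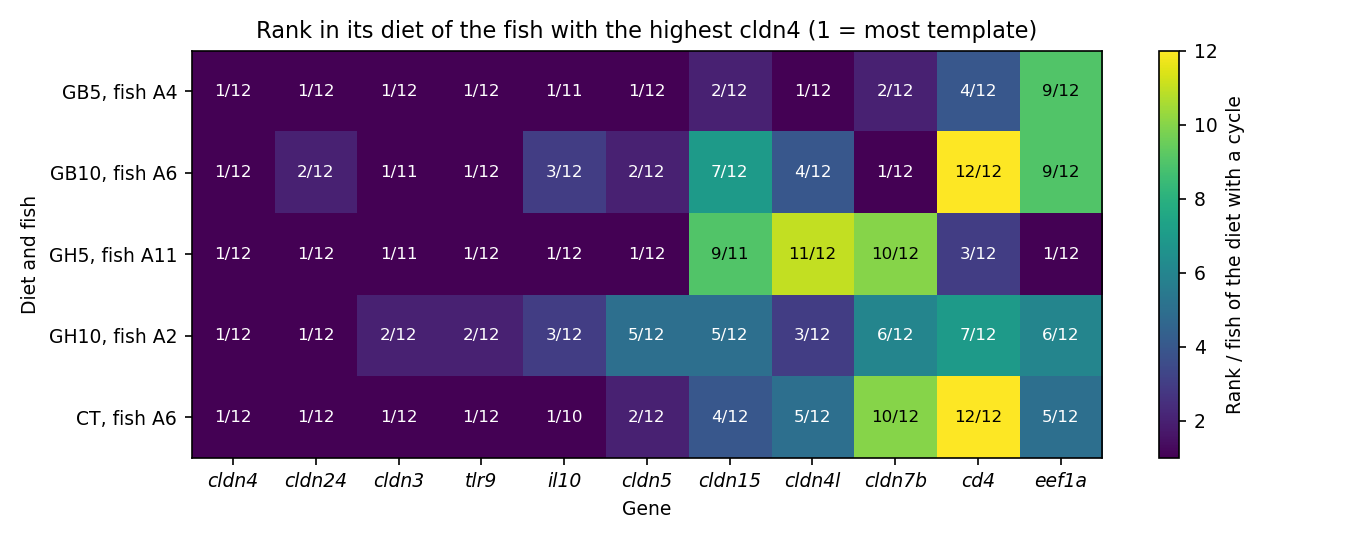
Rank within its diet of the fish with the highest cldn4, for 11 genes, from the cycle relative to eef1a (for eef1a, from its own cycle), where rank 1 has the most template. Each cell gives the rank and the number of fish of the diet with a cycle. The cldn4 column is rank 1 throughout because the fish were chosen by it, and the order of the columns was set by hand. The columns of cldn24, cldn3 and tlr9 hold ranks of 1 or 2 in all 5 diets, and the columns to their right hold mixed ranks.

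Over all fish the members varied together, after the mean of each diet was subtracted. Spearman's rho of log2 relative expression was 0.565 for cldn4 and cldn24 (Pearson's r 0.710, permutation p of rho within diets 2e-05, Benjamini-Hochberg value 0.0003 over 45 gene pairs, n = 59 fish). It was 0.405 for cldn3 and cldn4 (r 0.497, permutation p = 0.0026, Benjamini-Hochberg value 0.00688, n = 58) and 0.379 for cldn3 and cldn24 (r 0.423, permutation p = 0.0038, Benjamini-Hochberg value 0.00900, n = 57). The permutation p of r was 1e-05, 0.00015 and 0.00086 for these pairs, of which 1e-05 is the smallest possible. Without the 2 fish farthest from the median of the first gene of the pair, r was 0.609 for cldn4 and cldn24, 0.535 for cldn3 and cldn4 and 0.376 for cldn3 and cldn24. All 3 pairs passed the adjustment, where 66.7% of the 45 pairs of the 10 genes with the same eef1a values passed, and 71.4% of the 21 pairs without any of these claudins. All 45 pairs share the eef1a cycle of a fish as the reference, and the count of 3 of 3 has to be read against these shares.

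Cycles without a reference do not share that term, but they are not corrected for the amount of template of a fish, which its genes also share. With them, 40.0% of the 45 pairs passed the adjustment, 33.3% of the 21 pairs without any of these claudins, and again all 3 pairs of cldn3, cldn4 and cldn24. Their rho was 0.615 for cldn4 and cldn24 (permutation p = 1e-05, the smallest possible, n = 60 fish), 0.438 for cldn3 and cldn4 (permutation p = 0.00127, n = 58) and 0.331 for cldn3 and cldn24 (permutation p = 0.0137, n = 58). The median rho was 0.438 over the 3 pairs of these claudins and 0.255 over the 21 pairs without them, and the largest of the 21 was 0.542. In relative expression these medians lay closer together, at 0.405 and 0.367. There the largest of the 21 was 0.601, above the highest of the 3 pairs, 0.565. With the mean of cldn4l, cldn5, cldn7b and cldn15 as the reference, rho was 0.604 for cldn4 and cldn24 (permutation p = 1e-05). It was lower for the pairs with cldn3, at 0.342 with cldn4 (permutation p = 0.0132) and 0.278 with cldn24 (permutation p = 0.0417). These p-values were not adjusted. Whether the members vary together more than other genes was not tested. The cycles of the members were not clearly related to that of eef1a, with rho between 0.106 and 0.160 (lowest permutation p = 0.235).

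The pairs were also examined without the fish with the highest cldn4 of each diet, a choice made after the pattern was seen. These fish were chosen by a gene of the pairs, so a lower rho is expected from the choice itself. Without them rho was 0.259 for cldn3 and cldn4 (permutation p = 0.0709) and 0.217 for cldn3 and cldn24 (permutation p = 0.123), and that of cldn4 and cldn24 was 0.449. With any 1 fish left out, rho of cldn3 and cldn4 ran between 0.366 and 0.456 and that of cldn3 and cldn24 between 0.334 and 0.406, and both stayed under 0.05 in the permutation test.

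**Figure D4:**
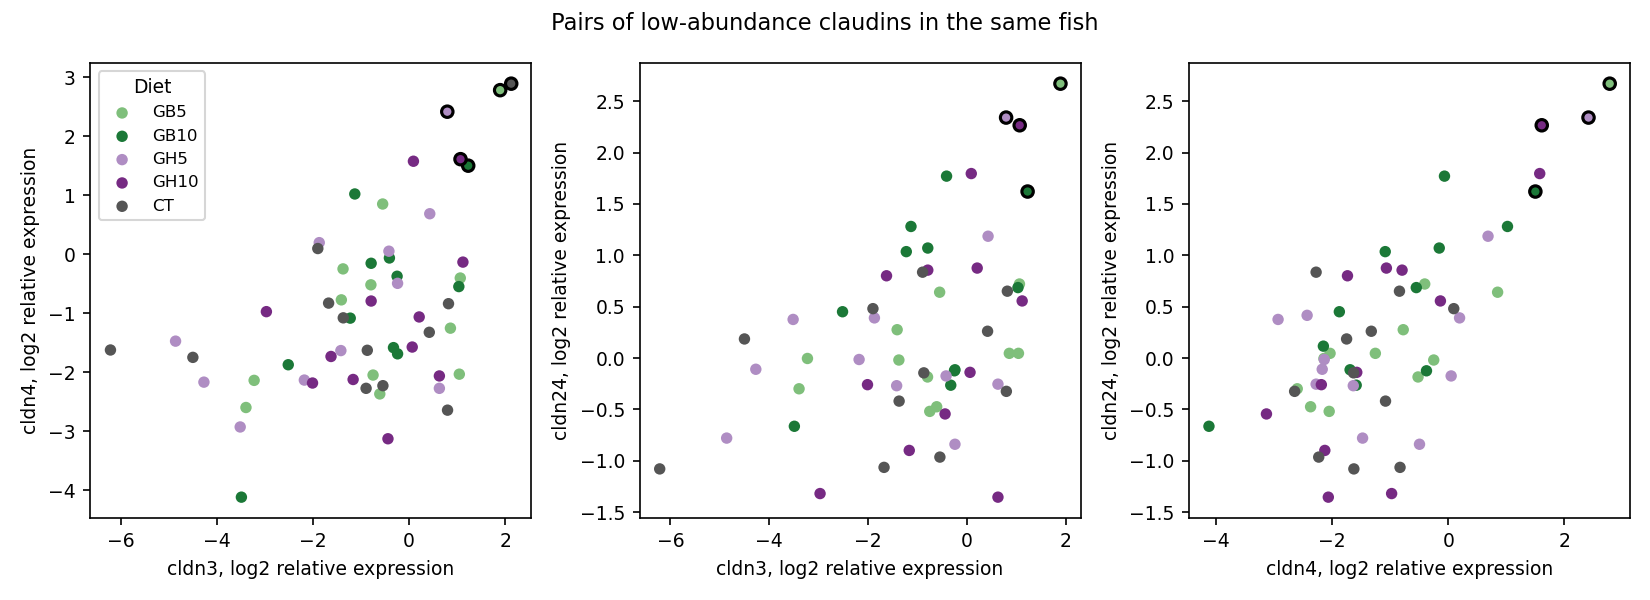
Log2 relative expression of each pair of cldn3, cldn4 and cldn24 in the same fish, coloured by diet, with black outlines for the fish with the highest cldn4 of its diet. The outlined fish lie at the upper right of each panel, and the control fish among them is absent from the panels with cldn24, for which it has no ratio. Among the other fish the trend is clearest for cldn4 and cldn24.

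By the size of rho, the genes closest to cldn4 were cldn24 (0.565) and tlr9 (0.516, permutation p = 0.00025, Benjamini-Hochberg value 0.00117, n = 54 fish). Those closest to cldn24 were cldn4 and cldn5 (0.528, permutation p = 6e-05, Benjamini-Hochberg value 0.00054, n = 59). Those closest to cldn3 were cldn4 (0.405) and cldn24 (0.379), with cldn5 next at 0.376. The tlr9 ratio had been left out by the authors in 4 of the 5 top fish. With cycles alone, which include these fish, rho was 0.673 for cldn4 and tlr9, the highest of the 45 pairs, 0.541 for cldn24 and tlr9, and 0.429 for cldn3 and tlr9. At the other end, cd4 had rho of -0.02 with cldn3, 0.168 with cldn4 and 0.273 with cldn24 in the relative expression.

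One control fish bears on the scale of both cldn4 and cldn24. Its cldn24 cycle was 26.95, the earliest of all 60 fish, against 30.7 ± 0.464 (SD, n = 11) in the other CT fish, of which the earliest was 30.065. Its eef1a cycle, 18.555, lay inside the range of CT, 18.15 to 19.7 (median 18.745). No ratio is given for this cycle, and whether it was removed as an outlier is not stated. Computed in the same way as the other ratios it would be 10.3, or 5.76 times the highest of the other control fish and above 6.37, the highest supplemented fish.

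The relative expression of cldn24 is set to a mean of 1 over the other 11 control fish. With the twelfth fish included, the mean of CT on the same scale would be 1.77. Relative to all 12 control fish, the mean cldn24 ratio was 0.843 ± 0.882 with GB5, 0.960 ± 0.517 with GB10, 0.794 ± 0.699 with GH5 and 0.888 ± 0.758 with GH10 (SD, n = 12 each), so each mean that lay above CT lay below it. On the log2 scale supplemented minus CT was 0.16 with this fish (permutation p = 0.623), against 0.45 without it. The number of fish at 2 or more became 4 of 60, with 1 in GB5, 0 in GB10, 1 in GH5, 1 in GH10 and 1 in CT (permutation p = 1). The 5 high fish of GB10 were thus no longer above the limit.

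In the same control fish the cldn4 ratio of 7.41 and the cldn3 ratio of 4.36 were kept, and both were the highest of all fish. It held 61.8% of the summed cldn4 ratio of CT. The other 11 control fish averaged 0.417 ± 0.255 for cldn4 and 0.694 ± 0.633 for cldn3 (SD, n = 11). Relative to these 11 fish, mean cldn4 was 2.61 with GB5, 1.97 with GB10, 2.30 with GH5 and 1.99 with GH10. Mean cldn3 relative to them was 1.58 with GB5, 1.23 with GB10, 0.951 with GH5 and 1.39 with GH10. On the log2 scale, supplemented minus CT without this fish was 0.49 for cldn4 (SE 0.46, permutation p = 0.292) and 0.62 for cldn3 (SE 0.58, permutation p = 0.289). Neither difference was under 0.05 in the permutation test with or without this fish. The linear means of cldn4 and cldn24 relative to CT depend on whether this 1 fish is counted, by a factor of more than 1.5 in each diet.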

How the data were processed

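The quantification cycles, deposited by the authors on a log2 scale with no normalization, come from real-time qPCR with EvaGreen, in duplicate wells given as 1 cycle per fish and gene. The relative expression deposited by the authors is a ratio, 2 to the power of minus ΔΔCT against eef1a and the mean of the control fish, from which outliers had been removed with ROUT at 1%. The CT columns of both deposited tables hold other text too, the gene headings, and their numbers have the same units. Instrument software, threshold and well values are not given in the sources used here. The authors' fold change table holds their own comparisons and was not used, and 0 columns belonged to no sample. All ratios of cldn3, cldn4 and cldn24 could be recomputed from the cycles with the same eef1a values (58 of 58, 60 of 60 and 59 of 59). For igm this held for 40 of 60 ratios, and the occludin ratios followed from a second list of eef1a cycles.

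Fish were grouped by the diet in the sample labels. Tests were run on log2 of the deposited ratio, with 100000 permutations of fish, two-sided where signed, and a threshold of 0.05. The one-way, supplemented, ingredient, dose and interaction tests covered all 14 genes. The pairs of diets, counts of high fish and tests of spread covered cldn3, cldn4 and cldn24 only. Benjamini-Hochberg adjustment was over the genes, over the 45 gene pairs or over 3 genes for spread. The 95% intervals used the pooled standard error. The members, lists and tests were chosen with earlier results of these data known. Genes named beside the members were the 2 with the largest rho for each, the claudins next to cycle 30, and the genes of the top fish, which were chosen after their values were seen. Alternatives were the linear ratio, ranks, ratios recomputed from all cycles, the mean of the 4 other claudins as the reference, cycles alone, removal of the highest fish and limma. The one-way, supplemented, interaction, correlation and sign-flip tests were checked on values simulated from a normal distribution, which lack the skew of these data. In that check the sign-flip test compared a gene with a single other gene, not with the mean of 4. The tests of pairs of diets, counts of high fish and spread between diets were not checked. Cycles have no depth, so the number of fish limits the precision. Limma 3.58.1 ran in R 4.3.3, and the permutations in Python 3.11.15 (scipy 1.17.1, numpy 2.4.6, pandas 2.3.3, with matplotlib 3.10.9 for plots).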

Additional observations from a re-analysis of the deposited data

Results flagged for a closer look

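The flagged value is 1 cycle of 1 fish, which the comparisons of diets on the deposited ratios did not use. Outliers had been removed from these ratios with ROUT at 1%, and whether this value was among them is not stated. For 1 control fish the cldn24 cycle has no relative expression, and the value it would have on the scale of the other ratios is 10.3, where the highest of the 11 control fish with a ratio was 1.78. The same fish has the highest cldn3 and cldn4 ratios of all fish, which were kept. None of the 15 groups of a gene and a diet had 4 to 10 fish, so the comparison of an extreme fish with its neighbour, made only in groups of that size, was not made.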

How the results depend on the processing

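No diet comparison of cldn3, cldn4 or cldn24 crossed 0.05 under any alternative run. Over all results, correlations and comparisons of spread included, 135 alternative values kept their side of the threshold and, where they have a sign, their direction. Tests without a sign, such as the one-way test and the counts of high fish, were judged by p alone. The sign turned in 4, none of them under 0.05 in either form. On the linear ratio, supplemented minus CT was -0.10 for cldn3 and -0.077 for cldn4, and the interaction of cldn4 was 0.14. With ranks, the dose difference of cldn4 was 1.77 ranks. Without the fish with the highest cldn4 of each diet, an alternative added after seeing the data, rho was 0.259 for cldn3 and cldn4 and 0.217 for cldn3 and cldn24, both no longer under 0.05. With each fish left out in turn (5000 permutations each), none of the one-way, supplemented, ingredient, dose and interaction tests, the rho values and the comparison of spread with the other claudins changed its side of 0.05. The pairs of diets, the counts of high fish and the spread between diets were not run in this way. Supplemented minus CT ran between -0.14 and 0.62 for cldn3 and between -0.01 and 0.49 for cldn4. Both highest values came when the control fish without a cldn24 ratio was left out. For cldn24 the difference ran between 0.36 and 0.55, but that control fish was absent from all of these values. With ratios recomputed from all cycles, which count that fish, the cldn24 difference was 0.16, outside this range. The interaction of cldn3 ran between 0.85 and 1.44. No paired analysis was possible because the fish of different diets are different animals and their row numbers pair nothing. The number of fish limits what could be seen, with SEs of supplemented minus CT of 0.57 for cldn3, 0.48 for cldn4 and 0.29 for cldn24 on the log2 scale.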
